A study of Mus musculus with 8 samples.

Results

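The effect of siRNA against Foxl2 in mouse ovarian follicle cells exposed to estradiol (E2) was measured on 4 of the 8 one-colour Agilent arrays of the series, 2 from cells given a siRNA pool against Foxl2 (FOXL2 siRNA) and 2 from cells given a non-targeting pool (control siRNA). The members are the 15637 of 24232 genes whose signal, brought to a shared 75th percentile per array, had a median of at least 10 over the 8 arrays, and the arrays were paired by replicate number. The cells came from preantral follicles of 8-week-old female Swiss mice, 5 mice pooled per replicate, and were kept in culture for 9 days in all. The labels describe them as mostly granulosa cells and no cell type was purified further. All groups received 12 pmol of siRNA with Lipofectamine and a pDsRed plasmid. The study describes 24 h of siRNA before the hormone treatment, which lasted 10 h. In it the medium held 100 nM E2, or ethanol vehicle in the other 4 arrays, which were the groups control siRNA with vehicle and FOXL2 siRNA with vehicle (2 arrays each). The medium of every group was free of androstenedione and its serum had been stripped of hormones with charcoal.

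FOXL2 is a forkhead protein that binds DNA in granulosa cells, which feed and enclose the oocyte, turn androgens into estrogens and answer to gonadotropins. In the adult ovary it is known to keep these cells from taking on features of Sertoli cells, their counterparts in the testis. E2 acts through the nuclear receptors ESR1 and ESR2, of which granulosa cells mainly use ESR2. The comparison asks which genes depend on FOXL2 when the estrogen receptors are occupied.

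The values below are log2 scaled signals, and a change is the mean of the arrays labelled FOXL2 siRNA minus the mean of those labelled control siRNA, both with E2, from a limma fit with the replicate number as a block. A gene is called when its Benjamini-Hochberg adjusted p over the 15637 genes is below 0.05. Across genes, both arrays of each group correlated at 0.989 to 0.992, and the share of probes well above background ran from 51.4 to 55.7%. The labels were checked first on the targeted gene. Foxl2 gave 12.94 and 12.76 with control siRNA and 13.12 and 12.96 with FOXL2 siRNA, a change of 0.19 (adjusted p = 0.252), so no fall was measured at the level of the gene, whose value is set mostly by the brighter of its 2 probes. Its dimmer probe fell by 0.79 on the log2 scale (adjusted p over probes = 0.0171) to 57.9% of the control level, a call not made without the block (adjusted p = 0.237), whereas the brighter probe changed by 0.19 (adjusted p = 0.312). Of 10 granulosa cell markers, 7 were well above background on all 4 arrays with E2, and Fshr and Amh, the FSH receptor and anti-Müllerian hormone, on none.

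The arrays labelled control siRNA with E2 also went against the study's description of the E2 response. Hsd11b2, Tacc1, Angpt2 and Cbs are described by the study as activated by E2, and Greb1 is a textbook estrogen target. All 5 were lower on both arrays labelled control siRNA with E2 than on either array labelled control siRNA with vehicle, by 1.00 to 2.33 on the log2 scale, while among the arrays labelled FOXL2 siRNA E2 raised the mean of all 5, by 0.55 to 1.94. Why the control arrays ran that way was not tested. The groups below are therefore named as labelled, and the main results are also given against the arrays labelled control siRNA with vehicle, an alternative added after the data had been seen.

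Given E2, the arrays labelled FOXL2 siRNA differed from those labelled control siRNA in both directions and in similar numbers. The fit called 2329 genes (14.9% of those tested), 1173 higher (7.5%) and 1156 lower (7.39%) in the arrays labelled FOXL2 siRNA. All of them moved the same way in both pairs, as did 71.1% of all genes. The fit took the arrays as pairs, which favours calling such genes, so that agreement is a description. Among the called genes, 297 rose and 244 fell by at least 1 on the log2 scale, and 47 and 57 by at least 2. The median called change was 0.63 for the higher genes and -0.57 for the lower, while the median over all genes tested was 0.00. Calls were fewest among dim genes, at 8.41% of the 3910 genes with the lowest signal and 15.7 to 18.9% in the other bins of like size. Without the block, 686 genes were called (4.39%), 352 higher (2.25%) and 334 lower (2.14%), and with the block but without 1 of the arrays compared, 1245 (FOXL2 siRNA replicate 2 left out), 1342 (control siRNA replicate 2) and 1392 (control siRNA replicate 1). Against the arrays labelled control siRNA with vehicle, 2521 genes were called, of which 882 higher and 870 lower genes were called the same way in both comparisons and 10 in opposite directions. The arrays with E2 did not overlap between siRNAs for 48% of all genes, so that with 2 arrays a side the absence of overlap by itself says little.

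**Figure D1:**
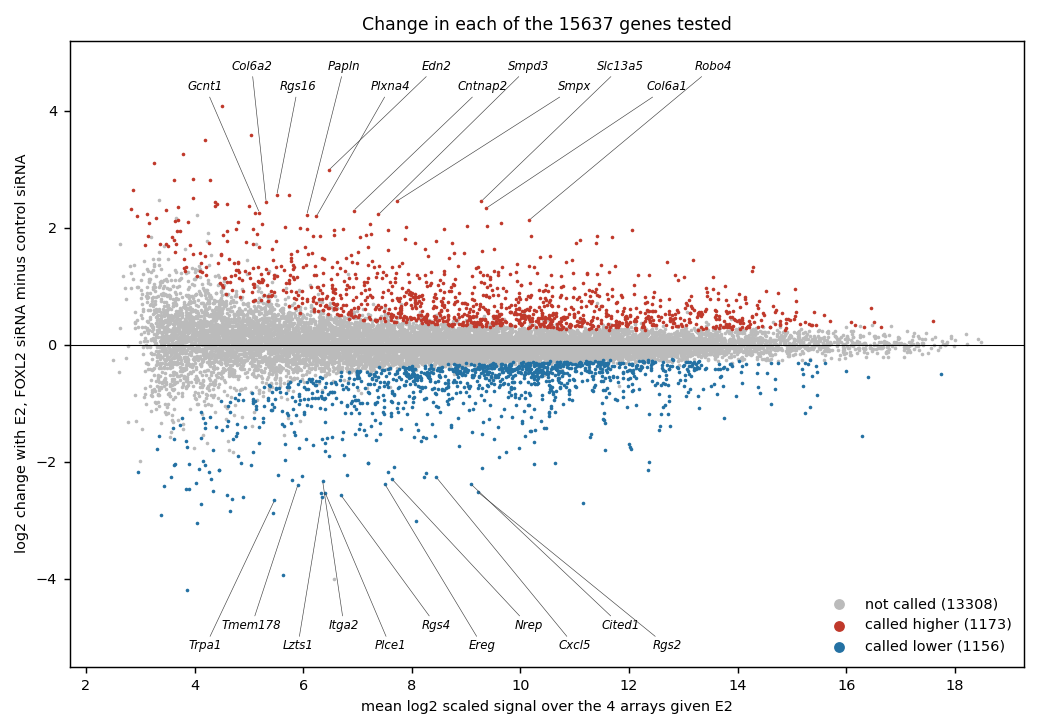
Change with E2 in each of the 15637 genes tested (FOXL2 siRNA minus control siRNA, log2, vertical axis) against the mean log2 scaled signal over the 4 arrays given E2 (horizontal axis). Coloured points are the 1173 genes called higher and the 1156 called lower, which lie on both sides of 0 at every signal level, and the named points are the 23 genes described next.

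Named genes were taken from those called, with no overlap between groups, well above background on all 4 arrays and with an ordinary symbol, so that some dimmer genes with larger changes are not among them. The 12 that rose most in this sense are described first. Edn2 encodes endothelin 2, a peptide that contracts smooth muscle and that granulosa cells make around ovulation. It gave 4.79 and 5.17 with control siRNA and 8.00 and 7.94 with FOXL2 siRNA, a 7.95-fold rise and a change of 2.99 (SE 0.20, adjusted p = 2.59e-06). Rgs16, a brake on signalling through G proteins, gave 4.06 and 4.40 with control siRNA and 6.55 and 7.04 with FOXL2 siRNA and changed by 2.56 (SE 0.26, adjusted p = 3.75e-05). In each of these genes the arrays of both siRNAs lay far apart in both replicates. Col6a1 and Col6a2, which encode chains of the same collagen VI fibre, rose together. Col6a1 gave 8.25 and 8.15 with control siRNA and 10.78 and 10.30 with FOXL2 siRNA (change 2.34, SE 0.12, adjusted p = 3.87e-07), and Col6a2 4.14 and 4.06 with control siRNA and 6.93 and 6.15 with FOXL2 siRNA (change 2.44, SE 0.26, adjusted p = 4.78e-05). Col6a3, which encodes a further chain, did not reach the signal needed to be tested. Robo4, a receptor for SLIT proteins best known from blood vessels, gave 9.32 and 8.87 with control siRNA and 11.42 and 11.04 with FOXL2 siRNA, with a change of 2.14 (SE 0.09, adjusted p = 2.53e-07).

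The other 7 of the 12 largest rises were Slc13a5, a citrate transporter (2.46), Smpx, a small protein of striated muscle (2.46), Cntnap2, a neurexin-like adhesion protein (2.30), Gcnt1, a Golgi enzyme that branches O-glycans (2.26), Smpd3, a neutral sphingomyelinase (2.23), Papln, a matrix protein related to the ADAMTS proteases (2.23), and the semaphorin receptor Plxna4 (2.20). Cntnap2 gave 5.70 and 5.86 with control siRNA and 7.99 and 8.17 with FOXL2 siRNA. With vehicle its change was -0.37 and that of Papln 0.38, whereas the other 10 changed by 1.52 to 3.94 with vehicle. All 12 kept their call against the arrays labelled control siRNA with vehicle, and all but Plxna4 without the block (adjusted p = 0.0547).

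The 11 genes with large falls that are described here included modulators of G protein signalling and factors that granulosa cells secrete. Rgs2 gave 10.31 and 10.66 with control siRNA and 8.16 and 7.77 with FOXL2 siRNA (change -2.52, SE 0.17, adjusted p = 2.12e-06), and Rgs4 8.10 and 7.86 with control siRNA and 5.55 and 5.27 with FOXL2 siRNA (change -2.57, SE 0.15, adjusted p = 1.03e-06). Both encode proteins that shorten the signal of G protein coupled receptors, and in both the FOXL2 siRNA arrays lay more than 2 units below the controls. Cited1, a transcriptional coactivator that binds CBP/p300, gave 10.33 and 10.23 with control siRNA and 8.12 and 7.68 with FOXL2 siRNA (change -2.38, SE 0.11, adjusted p = 3.11e-07). Ereg, an EGF-like ligand of the ovulatory response, gave 8.04 and 9.33 with control siRNA and 5.72 and 6.90 with FOXL2 siRNA (change -2.38, SE 0.14, adjusted p = 1.03e-06); its 2 replicates stood apart in both groups, and its fall was seen within each pair.

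The other 7 of the 11 were Trpa1, an ion channel (-2.66), Lzts1, a leucine zipper protein (-2.61), Plce1, a phospholipase C driven by Ras proteins (-2.53), the membrane protein gene Tmem178 (-2.39), Itga2, the collagen-binding integrin chain alpha 2 (-2.33), Nrep (-2.30) and the neutrophil chemokine Cxcl5 (-2.27). With vehicle all 11 changed in the same direction, by -0.60 to -2.91. All 11 were called against the arrays labelled control siRNA with vehicle, and 8 without the block, which lost Tmem178, Ereg and Cxcl5 (adjusted p = 0.0612 to 0.0989).

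**Figure D2:**
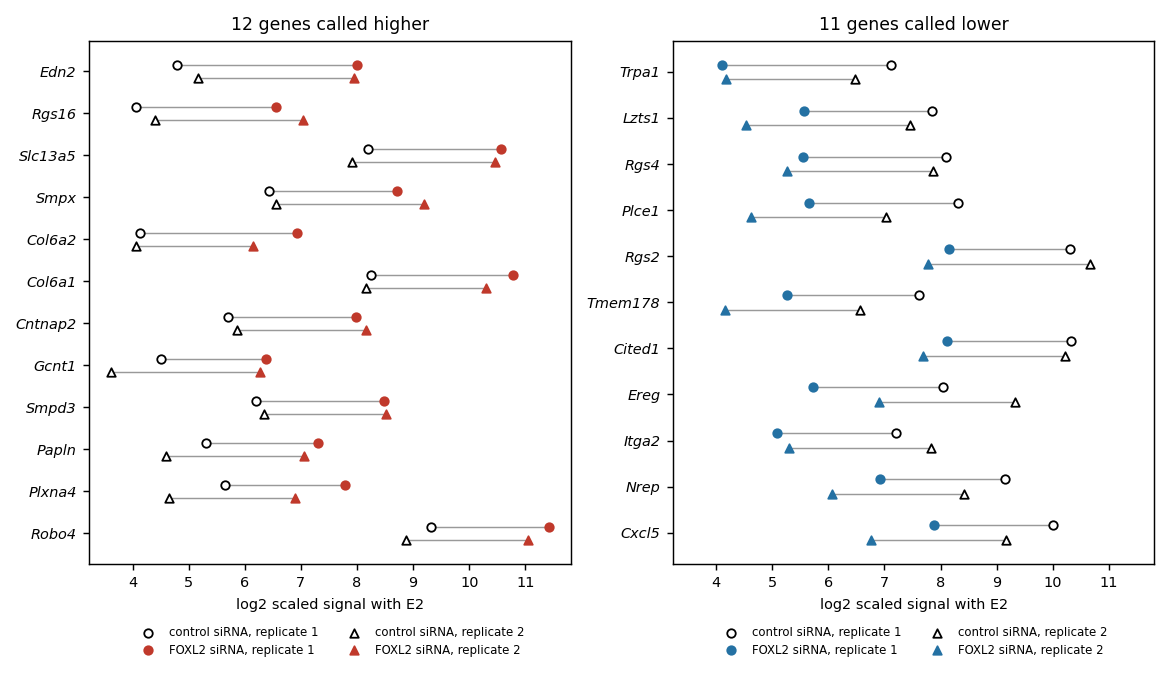
Log2 scaled signal (horizontal axis) on each of the 4 arrays given E2 for the 12 genes with the largest rise (left) and 11 with large falls (right). Open symbols are control siRNA and filled symbols FOXL2 siRNA, and the lines join arrays of the same replicate number. The 23 genes, from Edn2 (2.99) to Trpa1 (-2.66), were chosen among those whose filled and open symbols do not overlap.

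Genes of granulosa cell identity moved both ways. Of 21 tested members, 4 rose, 6 fell and 11 were not called (47.6% called, beside 14.9% of all genes). The median change was -0.13 (0.00 over all genes). Fst encodes follistatin, which binds activin and was the strongest fall of the list. It gave 11.33 and 11.22 with control siRNA and 9.57 and 8.91 with FOXL2 siRNA, a change of -2.04 (SE 0.14, adjusted p = 2.79e-06). Hsd17b1, which turns estrone into E2, gave 11.05 and 10.75 with control siRNA and 9.79 and 9.08 with FOXL2 siRNA (change -1.47, SE 0.11, adjusted p = 5.22e-06). Both fell by more than the difference between their replicates. Gja1, the main gap junction protein between granulosa cells (-1.10), the BMP receptor Bmpr1b (-1.06), Esr2 (-0.46) and the transcription factor Foxo1 (-0.46) fell too. Cyp19a1, which encodes aromatase, gave 4.45 and 4.84 with control siRNA and 3.76 and 3.61 with FOXL2 siRNA, and its change of -0.96 (adjusted p = 0.0925) was not called; it was well above background on 1 of the 2 FOXL2 siRNA arrays. Rspo1, a secreted activator of WNT signalling in the developing ovary, rose, with 7.47 and 6.91 with control siRNA and 8.96 and 8.89 with FOXL2 siRNA (change 1.73, SE 0.15, adjusted p = 1.55e-05). Inhbb (0.87), Gata4 (0.60) and Nr5a2 (0.45), a subunit of activin and inhibin and a pair of transcription factors of gonadal cells, rose by less. Inha, Inhba, Amhr2, Nr5a1 and Wnt4 changed by -0.24 to 0.20 and were not called. Without the block, Fst, Hsd17b1, Gata4 and Rspo1 remained called. Nr5a2 was not higher against the arrays labelled control siRNA with vehicle (-0.08, adjusted p = 0.673).

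The genes that the study names as activated by FOXL2, from other arrays of the same culture system, fell with a single exception. Of 16 members, 15 fell and 0 rose, against 7.39% of all genes that fell, with a median change of -1.40. On every member both FOXL2 siRNA arrays lay below both control arrays (24.7% of all genes). The list holds Grem1 (-1.78), Fst (-2.04) and Bmpr1b (-1.06) of BMP and activin signalling, Rgs2 (-2.52) and Rgs4 (-2.57), the growth factor Ereg (-2.38), Ptgs2 (-1.23) and Ptger2 (-1.56), which make and sense prostaglandin E2, and Has2 (-0.93), which makes the hyaluronan of the cumulus. The nuclear receptor Pparg gave 12.97 and 12.79 with control siRNA and 11.46 and 10.82 with FOXL2 siRNA (change -1.75, SE 0.12, adjusted p = 3.01e-06), and Fos, an immediate early factor, 7.46 and 7.19 with control siRNA and 6.43 and 6.16 with FOXL2 siRNA (change -1.03, SE 0.15, adjusted p = 0.00063). The exception was Cyp19a1. Since the list was named for falling after FOXL2 depletion, its direction is a description. Without the block 6 of the 16 remained called, among them Rgs4, Rgs2, Fst, Pparg and Fos, and against the arrays labelled control siRNA with vehicle 15 fell.

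Promoter sequence was available from RefSeq (build GRCm38.p6) for 11589 of the genes tested, and the 250 bases before each annotated start were searched on both strands for letters that forkhead factors are known to bind, namely GTAAACA and the variants written GTAAATA, otherwise ATAAACA and lastly ATAAATA. At least 1 of these stood before a start of 10.1% of the 11589 genes, of 10.4% of the genes called higher, 11.4% of those called lower and 9.93% of those not called. In the list of genes named as activated it was found in 4 of 12 (33.3%), namely Cyp19a1, Bmpr1b, Ptger2 and Pparg, and among the 23 genes with large changes in Col6a1 and Gcnt1, 2 of the 10 higher and 0 of the 6 lower genes with a promoter. The list is too short for these shares to be set against each other, and a match is a description of the sequence and not of binding. The sequences of 3 genes that fell and of both genes that rose are shown, 5′ to 3′ on the gene's own strand and ending at the base before the start, with the matched letters or their reverse complement in capitals. They lie at chr3:141931421-141931670 on the minus strand (Bmpr1b), chr14:44987861-44988110 on the plus strand (Ptger2), chr6:115421816-115422065 on the plus strand (Pparg), chr10:76726045-76726294 on the minus strand (Col6a1) and chr19:17372845-17373094 on the minus strand (Gcnt1).
Bmpr1b: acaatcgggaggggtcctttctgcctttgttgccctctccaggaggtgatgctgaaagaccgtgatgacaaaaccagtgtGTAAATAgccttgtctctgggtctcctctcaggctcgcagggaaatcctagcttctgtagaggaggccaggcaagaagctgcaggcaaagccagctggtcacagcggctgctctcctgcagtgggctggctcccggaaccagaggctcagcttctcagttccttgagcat
Ptger2: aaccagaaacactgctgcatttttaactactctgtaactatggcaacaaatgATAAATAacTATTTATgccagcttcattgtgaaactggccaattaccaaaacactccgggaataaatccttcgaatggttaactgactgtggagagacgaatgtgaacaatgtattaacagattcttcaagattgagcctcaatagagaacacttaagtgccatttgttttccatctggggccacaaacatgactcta
Pparg: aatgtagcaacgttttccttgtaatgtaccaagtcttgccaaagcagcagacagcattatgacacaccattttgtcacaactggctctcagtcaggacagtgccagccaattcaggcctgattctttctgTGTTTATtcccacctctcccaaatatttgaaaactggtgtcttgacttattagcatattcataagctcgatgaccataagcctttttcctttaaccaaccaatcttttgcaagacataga
Col6a1: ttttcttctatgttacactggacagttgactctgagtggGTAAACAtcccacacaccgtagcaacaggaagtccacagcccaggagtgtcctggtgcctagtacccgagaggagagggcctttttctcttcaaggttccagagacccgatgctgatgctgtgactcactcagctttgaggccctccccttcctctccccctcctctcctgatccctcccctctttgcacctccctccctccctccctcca
Gcnt1: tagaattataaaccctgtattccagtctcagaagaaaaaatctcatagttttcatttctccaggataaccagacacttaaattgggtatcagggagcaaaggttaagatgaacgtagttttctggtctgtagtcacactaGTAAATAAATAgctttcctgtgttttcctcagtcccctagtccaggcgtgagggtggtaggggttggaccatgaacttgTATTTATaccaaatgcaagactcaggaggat
Bmpr1b, Pparg and Col6a1 held 1 match each, Ptger2 held 2 matches and Gcnt1 3, of which a pair overlapped.

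Genes of Sertoli cells and of the testis pathway were higher. Of 17 tested members 10 rose (7.5% of all genes did), 1 fell and 6 were not called, with a median change of 0.66. Sox9, the transcription factor that drives Sertoli cell formation, gave 6.41 and 6.70 with control siRNA and 7.71 and 8.27 with FOXL2 siRNA, a 2.71-fold rise and a change of 1.44 (SE 0.14, adjusted p = 3.16e-05). Its relative Sox8 gave 6.01 and 6.00 with control siRNA and 7.36 and 7.08 with FOXL2 siRNA (change 1.21, SE 0.15, adjusted p = 0.000198). For both genes the controls were low and close together. Dhh, the Hedgehog ligand of Sertoli cells, gave 11.27 and 11.55 with control siRNA and 11.98 and 12.32 with FOXL2 siRNA (change 0.74, SE 0.09, adjusted p = 0.000123), and Fgf9, which maintains Sox9 in the fetal testis, 9.64 and 10.30 with control siRNA and 10.62 and 10.91 with FOXL2 siRNA (change 0.80, SE 0.10, adjusted p = 0.000187). Gata1 was not well above background on either control array and was on both FOXL2 siRNA arrays, which made it at least 5.81-fold higher (adjusted p = 0.000426). Rhox5 (0.83), Cyp26b1 (0.72), Mro (0.66), Ptgds (0.57) and Trf (0.38) also rose, of which Cyp26b1, which clears retinoic acid from the fetal testis, and Ptgds, which makes prostaglandin D2, overlapped between the groups and rose within both pairs. Vnn1 fell (-0.57), and Dmrt1 (-0.34), Cldn11 (0.38) and Clu (0.09) were not called. Sox9, Sox8, Dhh, Gata1 and Vnn1 remained called without the block. Leaving out replicate 1 of the controls given E2, the list had 6 rises and 1 fall. Rhox5 and Cyp26b1 lost their call against the arrays labelled control siRNA with vehicle (0.65 and 0.21, adjusted p = 0.112 and 0.247).

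Cholesterol synthesis was the most one-sided of the metabolic groups. The pathway runs from acetyl-CoA through mevalonate and squalene to cholesterol, the substrate of all steroid hormones. All 22 members were tested, of which 14 rose and 0 fell, beside 7.5% higher and 7.39% lower over all genes. The median change was 0.47, and on 19 of them both FOXL2 siRNA arrays lay above both controls (23.3% of all genes). Fdft1, which makes squalene, gave 10.96 and 11.04 with control siRNA and 12.05 and 12.44 with FOXL2 siRNA (change 1.24, SE 0.10, adjusted p = 6.65e-06). Hmgcs1, which makes HMG-CoA, gave 12.33 and 12.52 with control siRNA and 13.39 and 13.78 with FOXL2 siRNA (change 1.16, SE 0.11, adjusted p = 2.92e-05). In both genes the FOXL2 siRNA arrays lay above the controls by more than the gap between replicates. Idi1 (0.96), Mvd (0.82), Cyp51 (0.79), Lss (0.79), Sqle (0.77), Mvk (0.58), Fdps (0.55), Pmvk (0.47), Tm7sf2 (0.47) and Msmo1 (0.41), which code for further enzymes of the route, rose as well. The sensor Insig1 (0.22) and the factor Srebf2 (0.40), which act on control of the route, were not called. With vehicle 15 rose and Sc5d fell (-0.76), and without the block 7 rose with E2. Against the arrays labelled control siRNA with vehicle, 15 rose with E2 and 2 fell.

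**Figure D3:**
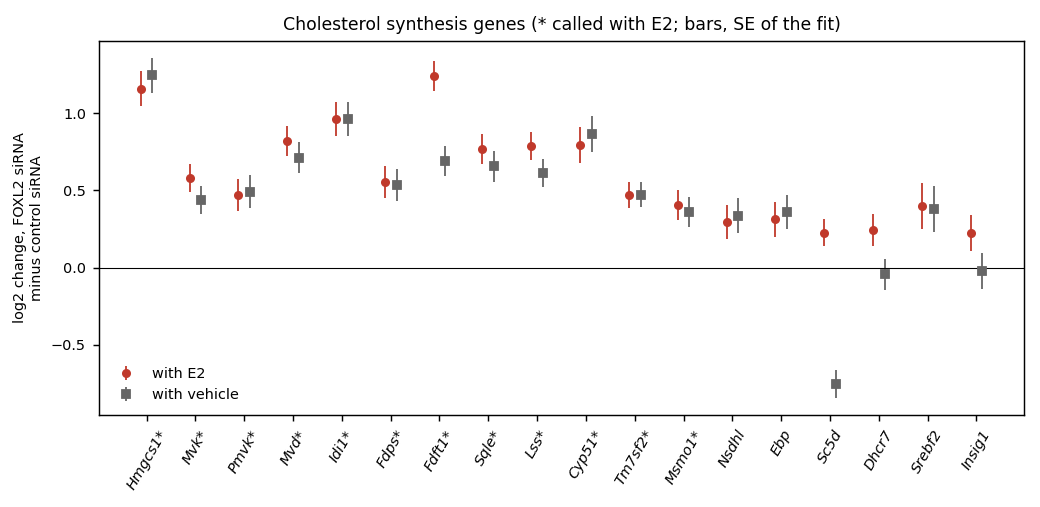
Log2 change (FOXL2 siRNA minus control siRNA, vertical axis) of 18 of the 22 cholesterol synthesis genes with E2 (circles) and with vehicle (squares), with bars for the standard error of the fit and asterisks for genes called with E2. The 12 called genes in the plot lie between 0.41 (Msmo1) and 1.24 (Fdft1), and all lie above 0 with vehicle too.

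The same promoter windows were searched on both strands for TCACNCCAC, a form of the sterol response element through which SREBP factors act. It was found before 1.22% of the 11589 genes and before 1 of the 15 cholesterol synthesis genes with a promoter. The gene of the pathway was Hmgcs1, and its window is shown for that reason (chr13:119690101-119690350 on the plus strand of GRCm38.p6, from RefSeq), with the match in capitals.
Hmgcs1: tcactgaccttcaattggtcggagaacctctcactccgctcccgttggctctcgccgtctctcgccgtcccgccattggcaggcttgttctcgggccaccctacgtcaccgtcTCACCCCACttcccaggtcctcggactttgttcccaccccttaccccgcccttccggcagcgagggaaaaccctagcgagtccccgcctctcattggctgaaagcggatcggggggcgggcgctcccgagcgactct

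Steroid synthesis genes moved both ways, with 5 of 17 tested members higher, 4 lower and a median change of 0.03. That is 52.9% called, beside 14.9% of all genes. Cyp11a1, which cuts the cholesterol side chain, gave 14.02 and 14.11 with control siRNA and 15.01 and 14.97 with FOXL2 siRNA (change 0.93, SE 0.08, adjusted p = 1.14e-05), and Cyp17a1, which makes androgens, 11.20 and 10.65 with control siRNA and 12.09 and 11.85 with FOXL2 siRNA (change 1.04, SE 0.12, adjusted p = 8.89e-05). Hsd17b7 (0.83), which acts in cholesterol as well as estrogen synthesis, the lipoprotein receptor Scarb1 (0.40) and the electron donor Fdxr (0.30) rose too. The members that fell were Hsd17b1, named above, Akr1c18 (-0.88), Hsd3b6 (-0.79) and Hsd3b1 (-0.54), which break down or make progesterone; Akr1c18 overlapped between the groups and fell in both pairs. Star, which carries cholesterol into mitochondria, gave 10.88 and 11.36 with control siRNA and 10.96 and 11.51 with FOXL2 siRNA and was not called (0.12). Cyp17a1 and Cyp11a1 are also theca markers. Of 5 theca markers tested these 2 rose and 0 fell (40% called), with a median of 0.12. Lhcgr did not stand well above background with E2. The summed linear signal of the 8 theca markers on the array was 21332 and 22445 with control siRNA and 39947 and 39323 with FOXL2 siRNA. Most of that difference came from Cyp11a1 itself, and without it the sum was 4749 and 4744 with control siRNA and 6900 and 7147 with FOXL2 siRNA. The part of theca cells in these changes was not tested. In such bulk RNA fewer cells of a type and less RNA per cell cannot be told apart. Without the block, Cyp11a1, Hsd17b7 and Hsd17b1 remained called.

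In the 16 genes that the study lists as regulators of hormone levels, again from other arrays, 8 fell and 4 rose. That is 75% called, beside 14.9% of all genes. Besides Hsd17b1, Bmpr1b and Akr1c18, the proprotein convertase Pcsk5 fell, with 11.06 and 11.25 with control siRNA and 9.43 and 10.03 with FOXL2 siRNA (-1.42), as did Ace, angiotensin converting enzyme (-0.99), Rdh10, which makes retinal (-0.93), and the insulin receptor substrate Irs1 (-0.50). Dio2, a thyroid hormone deiodinase, fell (-1.62) and was well above background on 1 of the 2 FOXL2 siRNA arrays. Smpd3 (2.23), the secreted neuropeptide precursor Vgf (2.02), Aldh1a2, which makes retinoic acid (1.14), and Chst8, a sulfotransferase of glycoprotein hormones (0.50), rose. Without the block Smpd3 remained higher and Hsd17b1, Ace and Pcsk5 lower. Among 18 lipid genes linked to PPARG or to fatty acid synthesis, 2 rose and 2 fell (22.2% called, beside 14.9% of all genes). Lpl, lipoprotein lipase, rose, with 12.51 and 11.99 with control siRNA and 13.86 and 13.03 with FOXL2 siRNA (1.19), and so did Scd1 (0.60), while Pparg and Plin4 (-1.05) fell, of which Scd1 and Pparg remained called without the block. With vehicle Lpl changed by -0.82, and against the arrays labelled control siRNA with vehicle its rise was not called (0.26, adjusted p = 0.111). Fasn, Acaca and Srebf1 changed by 0.03 to 0.29 and were not called. Of 12 genes of retinoic acid metabolism and response, 3 rose and 2 fell (41.7% called), among them the receptor Rarg (-0.41). Limma called 0 of the 12 without the block.

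In the activin, TGF-beta and BMP system genes of each role changed. Activins, made of inhibin beta chains, and BMPs signal in granulosa cells through serine-threonine kinase receptors and SMAD proteins. Of 14 inhibitors and SMAD targets 5 fell and 2 rose, of 16 receptors and SMADs 4 fell and 0 rose, and of 12 ligands 2 fell and 2 rose, beside 7.39% lower and 7.5% higher over all genes; the lists were not tested against each other. Among inhibitors, Grem1 gave 13.40 and 12.46 with control siRNA and 11.99 and 10.31 with FOXL2 siRNA (change -1.78, SE 0.15, adjusted p = 1.33e-05) and fell beside Fst, whereas Nog (0.64), Chrd (-0.09) and Fstl3 (-0.09) were not called. The receptors that fell were Bmpr1b (-1.06), Acvr1b (-0.79), Bmpr1a (-0.54) and Bmpr2 (-0.41). Acvr1b, an activin receptor, gave 8.02 and 8.04 with control siRNA and 7.35 and 7.13 with FOXL2 siRNA. Among ligands, Inhbb (0.87) and Tgfb2 (0.99) rose, and Bmp6 (-0.89) and Tgfb3 (-0.67) fell. Among SMAD targets, Id3 (-0.53) and Smad6 (-0.46) fell and Id1 (0.32) rose. Without the block Fst, Acvr1b, Bmp6 and Tgfb2 remained called, and Tgfb3 lost its call against the arrays labelled control siRNA with vehicle (-0.22, adjusted p = 0.172).

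Genes of the ovulatory response, in which LH raises cAMP and EGF-like ligands, moved both ways. Of 15 tested members 6 fell and 3 rose (60% called, beside 14.9% of all genes). Without the block 1 fell and 2 rose, beside 2.14% and 2.25% of all genes. The ligands Ereg and Btc, their receptor Egfr and the prostaglandin genes Ptgs2 and Ptger2 were among those that fell. Egfr gave 10.10 and 9.50 with control siRNA and 9.13 and 8.58 with FOXL2 siRNA (change -0.95, SE 0.09, adjusted p = 3.10e-05), and Ptgs2 10.18 and 10.73 with control siRNA and 8.76 and 9.70 with FOXL2 siRNA (change -1.23, SE 0.10, adjusted p = 1.00e-05). In Ptgs2 replicate 2 was the higher in both groups, and the fall was seen in both pairs. Btc fell by 1.20 on the log2 scale and Has2 by 0.93. Adamts1, a protease of the expanding cumulus, rose, with 10.07 and 10.19 with control siRNA and 11.47 and 11.62 with FOXL2 siRNA (change 1.41, SE 0.08, adjusted p = 1.03e-06), as did the prostaglandin synthase Ptges (0.58) and the ligand Hbegf (0.52). The calls left without the block were those of Btc, Adamts1 and Ptges. Areg, a further ligand, and Pgr, the progesterone receptor, did not reach the signal needed to be tested, and Tnfaip6 and Ptx3 of the cumulus matrix were not called (0.24 and 0.02). Of 20 genes of cAMP signalling 4 fell and 0 rose (20%, beside 14.9% of all genes called), namely the phosphodiesterases Pde4b (-1.05), Pde7a (-0.73) and Pde8a (-0.48) and the regulatory kinase subunit Prkar2b (-0.79), and without the block Pde7a and Prkar2b fell. Of 9 RGS genes 3 fell and 2 rose (55.6% called). Rgs10 (-0.60) fell beside Rgs2 and Rgs4, and Rgs3 (1.56) rose beside Rgs16, and all 5 remained called without the block. Of 18 immediate early factors 2 fell, Fos and Egr2 (-1.51, well above background on 1 of the 2 FOXL2 siRNA arrays), and 2 rose, Jun (0.60) and Klf4 (0.75). That is 22.2% called, beside 14.9% of all genes, and Fos and Klf4 remained called without the block.

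Other growth factor pathways were mixed. Beside 14.9% of all genes, the share called was 33.3% for the WNT, 83.3% for the insulin-like growth factor and 35.3% for the FGF list. It was nearer to that of all genes for the Hedgehog (20%) and Notch lists (21.4%). Of 27 WNT pathway genes 6 rose and 3 fell. Wnt6, a secreted ligand, gave 5.10 and 5.28 with control siRNA and 6.88 and 6.84 with FOXL2 siRNA (change 1.67, SE 0.18, adjusted p = 6.80e-05), and the receptors Fzd4 (1.00), Fzd5 (0.78) and Fzd2 (0.36), the ligand Wnt5b (0.36) and Rspo1 rose with it. Dkk2, a WNT inhibitor, was not well above background on either FOXL2 siRNA array and was at least 4.99-fold lower (adjusted p = 0.00247). Ctnnb1, which encodes beta-catenin (-0.01), and the target Axin2 (1.20, adjusted p = 0.0622) were not called. Of 12 genes of the insulin-like growth factor system 6 fell and 4 rose. Igfbp5, a binding protein, gave 10.99 and 10.31 with control siRNA and 9.74 and 7.90 with FOXL2 siRNA (change -1.83, SE 0.22, adjusted p = 0.000113), whereas Igfbp2, of the same family, gave 12.03 and 12.86 with control siRNA and 13.52 and 14.27 with FOXL2 siRNA (change 1.45, SE 0.08, adjusted p = 4.73e-07). The ligand Igf1 (-0.73) and the substrates Irs1 and Irs2 (-0.61) fell, and the receptor Igf1r (0.71) and the binding protein protease Pappa (0.68) rose. Of 17 FGF genes 4 rose, led by Fgf18 (1.49), Fgfr3 (1.21) and the feedback inhibitor Spry1 (1.12), and 2 fell. Of 10 Hedgehog genes Dhh rose and the transducer Smo fell (-0.57), while its receptor Ptch1 (-0.13) was not called and Gli1 was too dim to be tested. Of 14 Notch genes Lfng (0.82) and the ligand Jag1 (0.80, with overlapping groups) rose and the effector Rbpj fell (-0.34). Without the block Wnt6, Fzd4, Rspo1, Fgf18, Fgfr3, Irs2, Stc2, Dhh, Smo and Lfng remained called among the members of these lists. Without replicate 2 of FOXL2 siRNA with E2, 3 WNT genes rose and 2 fell, and 3 FGF genes rose and 0 fell, as also without replicate 2 of control siRNA with E2. Of the Notch list limma called 0 genes when that control array was left out and 1 when the FOXL2 siRNA array was.

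Among 26 steroid and orphan nuclear receptors 5 fell and 3 rose (30.8% called, beside 14.9% of all genes). Esr2, the main estrogen receptor of these cells, gave 11.71 and 11.70 with control siRNA and 11.41 and 11.08 with FOXL2 siRNA (change -0.46, SE 0.11, adjusted p = 0.0105), a call lost without the block (adjusted p = 0.11). Pparg fell most, Nr1d1 (-0.98) and Nr1d2 (-0.48) of the circadian clock and Rarg fell too, and Nr5a2 (0.45), Nr3c1 (0.37) and Rara (0.35) rose. Esr1 (-0.13) and Nr5a1 (0.14) were not called. Of 15 genes that E2 induces or represses in other tissues 4 rose and 2 fell (40% called). Cxcl12, a chemokine, gave 9.60 and 11.99 with control siRNA and 11.04 and 13.28 with FOXL2 siRNA (change 1.36, SE 0.13, adjusted p = 2.33e-05), so that its replicates were further apart than the groups. Ccnd1, cyclin D1, gave 6.20 and 7.06 with control siRNA and 7.34 and 8.58 with FOXL2 siRNA (change 1.33, SE 0.20, adjusted p = 0.000717), and Stc2 (0.89) and Rara rose, whereas Igfbp4 (-1.24) and the corepressor Nrip1 (-0.52) fell. Greb1 was not called (0.44 (adjusted p = 0.0509)). Without the block only Stc2 and Pparg of the members of these lists remained called, and with 1 of the 4 arrays left out 2 to 4 of the nuclear receptors were called in place of 8, the fewest without replicate 2 of FOXL2 siRNA.

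The genes that the study lists under cell adhesion, from other arrays, were 34, of which 15 fell and 10 rose. That is 73.5% called, beside 14.9% of all genes. Those that fell were mainly receptors and adhesion proteins of the membrane, such as the integrins Itga2 (-2.33) and Itga9 (-1.12), the protocadherins Pcdh7 (-1.16) and Pcdh18 (-1.05), Clstn2 (-1.88), Adgrv1 (-1.77) and Frem2 (-1.60) and the neuropilin Nrp2 (-0.61). Adam2 and Amigo2 were not well above background on either FOXL2 siRNA array and were at least 7.16-fold and 4.11-fold lower (adjusted p = 2.52e-05 and 0.0123), and Pcdh8 (-1.83) was so on 1 of 2. Those that rose included Mybpc3, a myosin-binding protein of muscle, with 10.82 and 10.70 with control siRNA and 12.60 and 12.60 with FOXL2 siRNA (change 1.84, SE 0.11, adjusted p = 1.03e-06), Ccn4, a WNT-induced matrix protein (1.52), mesothelin, Msln (1.64), and Itga7 (1.38), beside Col6a1, Col6a2, Sox9 and Tgfb2. In this list 10 higher and 8 lower genes remained called without the block, the same number higher as with it.

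Matrix genes moved both ways. Of 29 interstitial matrix genes 8 rose and 6 fell, and of 30 basement membrane and integrin genes 9 rose and 6 fell. These are 48.3% and 50% called, beside 14.9% of all genes. The fibrillar collagens Col1a1 (1.02), Col5a2 (0.63) and Col3a1 (0.45) and fibulin 2, Fbln2 (1.35), rose with collagen VI, while fibulin 5, Fbln5 (-0.69), Col12a1 (-0.72) and tenascin C, Tnc (-0.90), fell. Without the block Col6a1, Col6a2 and Fbln5 of the interstitial genes remained called, and 9 of the 29 were called when either control array or replicate 2 of FOXL2 siRNA with E2 was left out. Tnc was not called against the arrays labelled control siRNA with vehicle (-0.16, adjusted p = 0.651). In the basement membrane, which encloses the granulosa layer of the follicle, the collagen IV chains Col4a5 (0.84) and Col4a6 (0.87) and the laminin chain Lama4 (0.92) rose. Lama1, a laminin chain with a strong signal, fell, with 15.88 and 15.76 with control siRNA and 14.86 and 14.46 with FOXL2 siRNA (change -1.17, SE 0.09, adjusted p = 8.07e-06), as did the integrins Itgb3 (-1.09) and Itgb5 (-0.85). Of 21 proteases and inhibitors 7 rose and 3 fell (47.6% called). The metalloprotease inhibitors Timp3 (1.42), Timp1 (0.75) and Timp2 (0.65) rose together, and tissue plasminogen activator, Plat (-1.17), its inhibitor Serpine2 (-1.29) and Mmp11 (-0.65) fell. The counts were 7 higher and 5 lower for the basement membrane list and 4 higher and 3 lower for the proteases without the block. Fibroblast and stroma markers were measured beside these genes, and 50% of those tested were called. Of 6 tested 2 rose (the collagens Col1a1 and Col3a1) and Lum fell (-0.66), Dcn (0.25) and Pdgfrb (-0.07) were not called, and the summed signal of 9 markers was 11185 and 7821 with control siRNA and 16025 and 8678 with FOXL2 siRNA, which overlapped; 0 of the 6 were called by limma without the block. Their part in the matrix changes was not tested.

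Of 20 cadherin and junction genes 4 rose and 5 fell (45% called, beside 14.9% of all genes). Cdh3, P-cadherin, gave 8.42 and 7.95 with control siRNA and 9.81 and 9.70 with FOXL2 siRNA (change 1.57, SE 0.11, adjusted p = 2.65e-06), and Cdh2, N-cadherin, rose too (0.78). Cldn3 was not well above background on either control array and was at least 6.5-fold higher (adjusted p = 0.0237). Without the block Cdh3, Cdh2 and the protocadherins Pcdh7, Pcdh8 and Pcdh18 remained called. Of 30 axon guidance genes, whose products also steer endothelial cells, 11 rose and 4 fell (50% called), with a median of 0.30. Sema7a, a membrane-anchored semaphorin, gave 10.30 and 10.66 with control siRNA and 12.23 and 12.45 with FOXL2 siRNA (change 1.86, SE 0.11, adjusted p = 9.24e-07). Slit3 (1.35), the ephrins Efnb1 (0.90) and Efnb2 (0.66), Robo4 and Plxna4 rose with it, while Robo1 (-0.66), Robo2 (-1.02) and Epha4 (-1.35) fell. Without the block 5 of the 30 rose and 2 fell. Robo4 and Robo2 moved in opposite directions, Robo2 giving 10.64 and 10.70 with control siRNA and 9.71 and 9.58 with FOXL2 siRNA. Of 15 angiogenic genes 4 rose and 5 fell (60% called). The VEGF receptor chains Nrp1 (1.39) and Nrp2 (-0.61) moved apart, as did the ligands Vegfa (0.65) and Vegfd (-0.89), and thrombospondin 1, Thbs1, fell (-1.09). Nrp1 and Thbs1 remained called without the block. Of endothelial markers only Robo4 was called among 5 tested (20%, beside 14.9% of all genes). Cdh5, Tek, Emcn and Vwf were not well above background on any array with E2, and Pecam1 changed by 0.01. The summed signal of the 10 endothelial markers was 2318 and 1774 with control siRNA and 4627 and 3888 with FOXL2 siRNA. Most of that difference was Robo4, and without it the sum was 1678 and 1306 with control siRNA and 1883 and 1780 with FOXL2 siRNA. The part of endothelial cells in these results was not tested. Of 16 contractile genes 5 rose, led by Ccn2 (0.95) and Ccn1 (0.64), and 1 fell (37.5% called). Acta2 and Tagln were not called (-0.09 and 0.17). Without the block Ccn2 alone of these remained called, and leaving out control array 1 or FOXL2 siRNA array 2 given E2 brought the calls to 3 of the 16.

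Cell cycle genes stayed close to the background of calls, with 5 of 39 higher and 2 lower (17.9% against 14.9% of all genes). The D cyclins Ccnd1, Ccnd2 (0.79) and Ccnd3 (0.42) and the inhibitors Cdkn2a (0.55) and Cdkn2b (0.80) rose, the factor Foxm1 (-0.62) and the spindle motor Kif11 (-0.51) fell, and Mki67 (-0.11), Top2a (-0.24) and the 6 MCM genes tested were not called. On 19 of the 39 genes both FOXL2 siRNA arrays lay below both controls (24.7% of all genes), with small differences and a median of -0.11. Ccnd3 and Foxm1 remained called without the block. Of 25 apoptosis genes 4 rose and 3 fell (28% called), and Bik, Bcl2l1, Mcl1 and Casp6 (-0.67) remained called without the block. Either control array or replicate 2 of FOXL2 siRNA with E2, left out, brought the apoptosis calls to 2 higher and 2 lower, and either replicate 2 left out brought the cell cycle calls to 4 higher and 0 lower. Bik, which promotes cell death, gave 5.08 and 5.08 with control siRNA and 6.87 and 7.25 with FOXL2 siRNA (change 1.98, SE 0.18, adjusted p = 1.83e-05), and the survival genes Bcl2l1 (0.60) and Mcl1 (-0.75) moved in opposite directions, although Bcl2l1 was not called against the arrays labelled control siRNA with vehicle (0.13, adjusted p = 0.324). Of 29 interferon and antigen presentation genes 11 rose and 0 fell (37.9% called), with a median of 0.23. Ifit2, an antiviral protein, gave 10.93 and 9.40 with control siRNA and 11.46 and 10.40 with FOXL2 siRNA (change 0.77, SE 0.13, adjusted p = 0.00143), and Rsad2 (0.58), Ifit3 (0.51), Mx1 (0.51) and Cxcl10 (0.51) rose by less. Replicate 2 was lower than replicate 1 in both groups for these genes, and limma called 0 genes of this list without the block or without the intensity trend, 2 without replicate 2 of FOXL2 siRNA and 3 and 6 without replicates 1 and 2 of control siRNA. Against the arrays labelled control siRNA with vehicle 5 of the list rose, and Rsad2 and Mx1 were not among them.

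Of 21 cytokine and NF-kB genes 7 fell and 3 rose (47.6% called, beside 14.9% of all genes). Cxcl1, a neutrophil chemokine like Cxcl5, gave 7.29 and 6.78 with control siRNA and 5.24 and 5.42 with FOXL2 siRNA (change -1.71, SE 0.20, adjusted p = 0.000112), and Il7 (-1.33) and Il1r1 (-0.98) and Il6 fell too. Ackr3, a scavenging chemokine receptor, fell (-2.31) and was well above background on 1 of the 2 FOXL2 siRNA arrays. Csf1, which supports macrophages, rose (1.24), with Cxcl12 and Cxcl14 (1.33, well above background on 1 of 2 control arrays). Cxcl14 was not called against the arrays labelled control siRNA with vehicle (0.61, adjusted p = 0.191). Without the block 0 rose and 3 fell. Of 6 macrophage markers tested 0 were called by limma, and their sum was 1875 and 1909 with control siRNA and 2149 and 1716 with FOXL2 siRNA; leaving out FOXL2 siRNA array 2 gave 1 call. Of 22 genes of the unfolded protein and ATF4 responses 1 rose and 1 fell (9.09% called, beside 14.9% of all genes). Of 21 glycolysis and hypoxia genes 2 rose, Hk2 (0.92) and Vegfa, and Adm fell (-0.73), which is 14.3% called. Without the block Hk2 alone of these 5 remained called, and 0 of the 22 genes were called by limma without replicate 2 of either group with E2. Of 23 antioxidant genes 5 rose and 2 fell (30.4% called). The glutathione transferases Gstm2, with 13.36 and 13.89 with control siRNA and 14.71 and 15.19 with FOXL2 siRNA (change 1.33, SE 0.09, adjusted p = 3.06e-06), and Gstm1 (1.17), which are near-identical in places and may not be fully told apart by probes, led the rises, and Cth, which makes cysteine, fell (-0.85). Without the block Gstm1 and Gstm2 remained called. Leaving out control array 1 given E2 brought the list to 2 rises and 2 falls, and leaving out FOXL2 siRNA array 2 to 3 rises and 1 fall.

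Markers of the ovarian surface epithelium, which covers the ovary and could be carried into culture, were measured too. Among those tested 57.1% were called, beside 14.9% of all genes. Of 7 tested 4 rose, Muc16 with 8.01 and 7.75 with control siRNA and 9.81 and 9.43 with FOXL2 siRNA (change 1.74, SE 0.14, adjusted p = 9.37e-06), Msln with 8.71 and 8.68 with control siRNA and 10.11 and 10.57 with FOXL2 siRNA, Upk3b (1.25) and Krt18 (0.40), and 0 fell. Msln and Muc16 remained called without the block. Epcam did not stand well above background with E2, and Krt8 (0.22) and Krt19 (0.79) were not called. The summed signal of the 8 markers was 20171 and 19924 with control siRNA and 26468 and 27952 with FOXL2 siRNA, and without Krt18, the brightest, 5349 and 5389 against 7807 and 7926. The median change of the list (0.79) was 0.39 with normexp background correction and 0.46 when control array 2 given E2 was left out. The part of such cells in the other results was not tested. Of 13 oocyte markers 10, among them Zp1, Zp2, Zp3 and Bmp15, were not well above background on any array with E2, and the list's sum was 175 and 197 with control siRNA and 177 and 216 with FOXL2 siRNA. Ddx4 rose (1.40) and was well above background on 1 of 2 control arrays, and it was not called without the block or without replicate 1 of either group with E2. Apart from Gata1, no erythroid marker was called among the 4 tested (25% called). The sum of that list was 185 and 167 with control siRNA and 176 and 232 with FOXL2 siRNA.

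**Figure D4:**
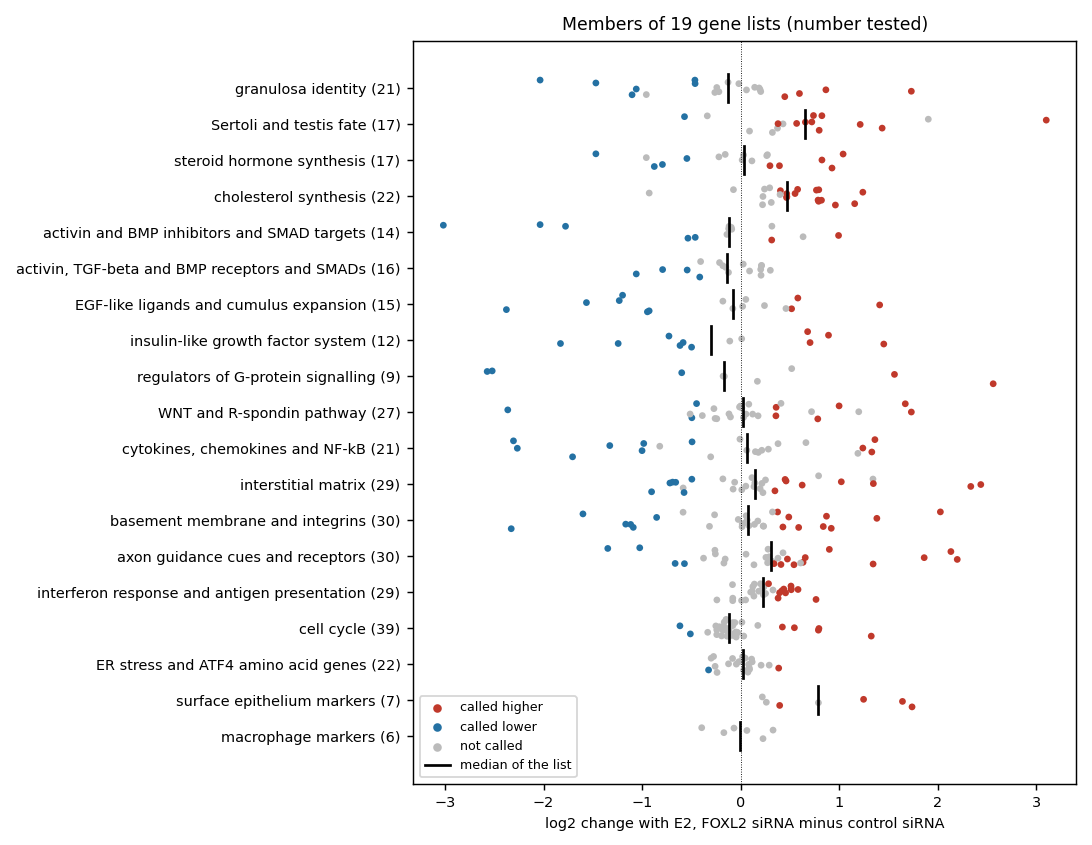
Log2 change with E2 (FOXL2 siRNA minus control siRNA, horizontal axis) of every tested member of 19 gene lists, with the number tested beside each name. Coloured points were called higher or lower, grey points were not called, and the black mark is the median of the list, from -0.30 for the insulin-like growth factor system to 0.79 for the surface epithelium markers.

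The effect of FOXL2 siRNA with E2 was then set beside that with vehicle, which rests on the other 4 arrays. With vehicle 2928 genes were called (18.7%), 1629 higher (10.4%) and 1299 lower (8.31%). Of the genes that rose with E2, 826 also rose with vehicle, which is 70.4% of those with E2 and 50.7% of those with vehicle. Of the genes that fell, 714 fell with both, 61.8% and 55% of the lists. A further 54 genes rose with E2 and fell with vehicle, and 8 did the reverse. The difference between both effects was tested directly and called for 332 genes (2.12%), 229 with the higher effect with E2 (1.46%) and 103 with the lower (0.659%), and for 38 genes without the block (0.243%), 37 higher (0.237%) and 1 lower (0.0064%).

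In the named genes with the largest differences, E2 and vehicle stood in opposite order after control siRNA and after FOXL2 siRNA. The full order of the 4 groups was not the same in all of them. Hs3st6, a heparan sulfate sulfotransferase, gave 8.67 and 9.29 with vehicle and 6.04 and 6.41 with E2 after control siRNA, and 5.79 and 6.01 with vehicle and 8.05 and 8.15 with E2 after FOXL2 siRNA. Its effect with E2 was 1.88 and with vehicle -3.08, a difference of 4.95 (SE 0.20, adjusted p = 3.70e-07). Cacna1a, a calcium channel subunit, gave 8.26 and 7.94 with vehicle and 6.47 and 6.68 with E2 after control siRNA, and 6.75 and 6.75 with vehicle and 8.63 and 8.46 with E2 after FOXL2 siRNA, with a difference of 3.32 (SE 0.20, adjusted p = 8.58e-06). In both genes the control arrays were lower with E2 and the FOXL2 siRNA arrays higher with E2. The kinase Hunk (3.35), Cbs, an enzyme of cysteine synthesis (3.42), and urokinase, Plau (3.24), differed in the same way. In the opposite direction, Plekhg4, an exchange factor for small GTPases, gave 7.14 and 7.16 with vehicle and 7.98 and 8.11 with E2 after control siRNA, and 9.39 and 9.21 with vehicle and 8.45 and 8.48 with E2 after FOXL2 siRNA (-1.74), and Unc93a (-1.94), the ceramidase Acer1 (-1.73), Cxcl5 (-1.67) and Insc (-1.51) differed likewise. Over all called differences, the control mean was lower and the FOXL2 siRNA mean higher with E2 in 229 of 229 genes with the higher effect, and the reverse held in 99 of 103 with the lower. Genes enter these counts by that same difference, which favours opposite signs, so the counts are a description. The control vehicle and FOXL2 siRNA E2 arrays lay above all others in 79 of the 229 (34.5%, beside 1.27% of all genes). The reverse held in 9 of the 103 (8.74%, beside 0.396% of all genes). When the arrays labelled control siRNA with E2 and with vehicle were exchanged, the effects with both treatments differed in 8 genes, 1 higher and 7 lower.

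Among members of the lists, the effect on Sox9, Sox8 and Dhh was smaller with E2 (1.44, 1.21 and 0.74) than with vehicle (2.66, 2.22 and 1.34), and so was that on Gja1 (-1.10 against -2.49). The effect on Rgs4 (-2.57 against -1.54), Cited1 (-2.38 against -1.46) and Sema7a (1.86 against 0.16) was larger with E2. The differences were called with the block for all of these 7 genes, for Sema7a alone without it, and for 0 of the 42 named genes with a called difference once the control arrays were exchanged. Of the genes that fell with both treatments, Grem1 (-1.78 and -1.49), Rgs2 (-2.52 and -2.33) and Pparg (-1.75 and -2.08) had effects whose difference was not called.

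**Figure D5:**
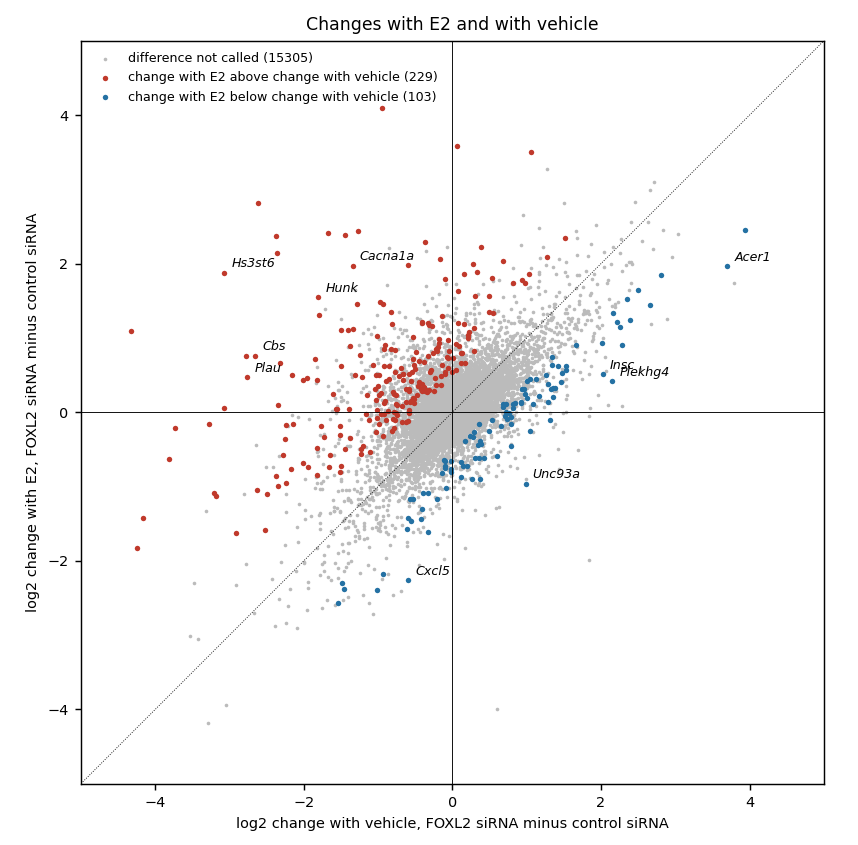
Log2 change with E2 (vertical axis) against that with vehicle (horizontal axis), FOXL2 siRNA minus control siRNA, in the 15637 genes tested. Grey points are the 15305 genes whose difference was not called, coloured points the 229 genes with the higher and the 103 with the lower change with E2, and the dotted line marks equal changes; many coloured points lie in the sectors where the changes have opposite signs.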

How the data were processed

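RNA of 8 cultures (4 groups of 2) was hybridised to one-colour Agilent mouse arrays on 1 slide, from 50 ng of total RNA amplified and labelled with Cy3. The deposited scanner files gave the processed signal as an intensity per spot, background-corrected by the authors' scanner software, and the deposited value table held log2 intensities of the same arrays and was used as an alternative. Each array holds 62976 spots, of which 3671 control spots were left out, and 42 probes flagged as non-uniform were dropped, leaving 55639. Intensities were scaled to a common 75th percentile (319.9), averaged over the probes of a gene through the platform's Entrez identifiers, and log2-transformed. No probe was saturated, and the number of arrays limits the precision.

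Groups were compared in limma 3.58.1 (R 4.3.3) with 4 group means, the replicate number as a block and an intensity trend, with two-sided tests and Benjamini-Hochberg adjustment over 15637 genes. The replicate numbers, which the labels give as biological replica, were taken to pair the arrays because deviations from the group means correlated at 0.327 to 0.445 in the 6 pairs of groups, whereas each number also coincides with a row of the slide and each group with a column; the labels do not say that same-numbered cultures shared a pool of mice. With the block, the P-values rest on the spread left once the difference between replicate numbers is removed, pooled in part over genes. The fit without the block keeps that difference in the spread. Alternatives were no block, other normalizations, filters and probe choices, the value table, each array left out, the study's rule and exchanged control arrays. Named genes were the 12 highest and 12 lowest changes under the conditions given with them, up to 5 called members with the largest change and the first 3 members of each of 44 lists, and up to 5 differences in each direction; further called members were named after their values had been seen. Some genes that this rule names are not reported here, and counts over all genes and over the lists include them. The members and lists were chosen with earlier results of these data known, and the lists of genes named by the study were chosen by it from other arrays of such cultures. Promoters were those of RefSeq on GRCm38.p6, matched by symbol or identifier. Tables were handled with pandas 2.3.3 and numpy 2.4.6 in Python 3.11.15, and plots drawn with matplotlib 3.10.9.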

Additional observations from a re-analysis of the deposited data

Results flagged for a closer look

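A difference between the effect of FOXL2 siRNA with E2 and that with vehicle was called by limma (Benjamini-Hochberg over 15637 genes) for 42 of the named genes, 22 higher and 20 lower with E2. The higher ones, with the difference on the log2 scale, were Hs3st6 (4.953), Cbs (3.415), Hunk (3.350), Cacna1a (3.317), Plau (3.238), Angpt2 (3.181), Cntnap2 (2.668), Greb1 (2.447), Pcdh8 (2.420), Lpl (2.009), Papln (1.851), Sema7a (1.705), Cdk5r1 (1.419), Gja1 (1.390), Rgs3 (1.077), Fgf9 (1.060), Slit3 (0.860), Cyp17a1 (0.838), Col6a1 (0.819), Cyp26b1 (0.788), Bcl2l1 (0.658) and Id3 (0.578). Hs3st6 and Cbs stood at the head of this list, and Angpt2, Greb1, Plau and Lpl code for proteins of blood vessels, estrogen response, proteolysis and lipid uptake. The lower ones were Unc93a (-1.944), Plekhg4 (-1.735), Acer1 (-1.731), Cxcl5 (-1.667), Insc (-1.514), Slc13a5 (-1.486), Tmem178 (-1.378), Sox9 (-1.222), Rgs4 (-1.028), Sox8 (-1.006), Adm (-0.929), Cited1 (-0.920), Msln (-0.854), Nrep (-0.804), Tgfb3 (-0.783), Star (-0.701), Plat (-0.643), Dhh (-0.598), Col3a1 (-0.595) and Lama1 (-0.590). Sox8, Sox9 and Dhh of the testis pathway and Cyp17a1 and Star of steroid synthesis thus were all among these 42, on the higher side for Cyp17a1 and the lower for the other 4. Without the replicate block 7 of the 42 were called, namely Hs3st6, Cbs, Cacna1a, Plau, Cntnap2, Sema7a and Plekhg4. With the control arrays exchanged between treatments, 0 of the 42 differences were kept, 17 were not called and 25 changed sign, and by its construction the exchanged difference equals the sum of the labelled E2 effects with FOXL2 siRNA and with control siRNA.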

How the results depend on the processing

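The number of genes called with E2 (2329) was 686 without the replicate block, 1505 without the filter on low signal, 1330 without the intensity trend, 368 and 517 by the study's rule on values as scaled and as centred within replicate numbers, and 1245 to 2470 with 1 array left out (1392 and 1342 without replicates 1 and 2 of control siRNA with E2, 1245 without replicate 2 of FOXL2 siRNA with E2). The difference from vehicle (332 genes) fell to 38 without the block, 91 without the filter, 77 without the trend, 158 to 318 with 1 array left out (158 and 196 without replicates 1 and 2 of control siRNA with E2, 191 without replicate 1 of FOXL2 siRNA with vehicle) and 8 with the control arrays exchanged. The comparison with vehicle (2928 genes) gave 1026 without the block and 1609 to 2880 with 1 array left out (1609 and 1822 without replicate 2 of control and of FOXL2 siRNA with vehicle). Over the lists, 258 distinct members were called, 104 without the block and 191 to 273 with 1 array left out. Of the 179 named genes called with E2, 87 were kept without the block, 156 with the control arrays exchanged and 138 to 179 in the other settings, the fewest without the trend. The study's rule was not run on single genes. Calls lost with the control arrays exchanged, besides those given above, included Adm (-0.355), Nr1d2 (-0.412), Pde8a (-0.278), Fzd5 (0.534), Lum (-0.164), Ddx4 (0.642) and Unc93a (-0.108). With the control arrays exchanged, the log2 change with E2 turned to Nr5a2 -0.076, Cbs -1.344, Hs3st6 -0.880 and Hunk -0.033, and the differences from vehicle turned to Sox9 0.352, Sox8 0.399, Dhh 0.074, Rgs4 0.129, Cdk5r1 -0.214, Tgfb3 0.113, Id3 -0.004, Cyp26b1 -0.240, Col3a1 0.204, Lama1 0.189, Plat 0.467, Sema7a -0.857, Slit3 -0.402, Bcl2l1 -0.269, Cxcl5 0.222, Cbs -0.798, Slc13a5 0.146, Tmem178 0.272, Cited1 0.171, Nrep 0.351, Hs3st6 -0.560, Plau -0.718, Plekhg4 0.061, Acer1 0.491 and Insc 0.269. No other setting reversed a named gene. The median change of the 44 lists moved by over 0.1 in 7 with normexp background correction, in 8 with only genes well above background, in 7 to 13 without 1 array given E2 (by at most 0.443) and in 19 with the control arrays exchanged. Fewer arrays leave fewer degrees of freedom, and the cause of the other shifts was not tested. With 2 arrays a group, dim genes were called least often.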

Other observations

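Solute carriers, the transporters of amino acids, sugars, ions and metals, formed the family of genes with the second largest number of tested members among 20 families that share the start of a symbol, and were looked at after their values had been seen. Of 247 tested with E2, 50 were called by limma (20.2%, beside 14.9% of all genes), 21 higher and 29 lower, with a median change of -0.03. Amino acid transporters were among the falls. Slc7a8, a carrier of large neutral amino acids, gave 13.33 and 13.51 with control siRNA and 11.44 and 11.14 with FOXL2 siRNA (change -2.13, SE 0.13, adjusted p = 1.38e-06), and Slc3a2, the heavy chain with which such carriers pair, gave 15.03 and 15.22 with control siRNA and 14.04 and 14.18 with FOXL2 siRNA (change -1.01, SE 0.09, adjusted p = 1.33e-05). The arrays of both siRNAs lay about 1 unit or more apart in these genes. Slc16a11 and Slc16a13, neighbouring members of the monocarboxylate carrier family, gave 13.62 and 13.10 with control siRNA and 11.82 and 10.89 with FOXL2 siRNA (change -2.01, SE 0.12, adjusted p = 1.19e-06) and 10.84 and 10.88 with control siRNA and 9.30 and 8.90 with FOXL2 siRNA (change -1.76, SE 0.12, adjusted p = 1.92e-06), whereas Slc16a3, which exports lactate, gave 7.99 and 7.46 with control siRNA and 9.14 and 8.48 with FOXL2 siRNA (change 1.08, SE 0.11, adjusted p = 3.07e-05). Slc40a1, the iron exporter ferroportin, gave 10.73 and 11.32 with control siRNA and 9.48 and 9.96 with FOXL2 siRNA (change -1.30, SE 0.08, adjusted p = 1.71e-06). Slc41a3, a magnesium carrier, gave 9.85 and 10.54 with control siRNA and 11.63 and 12.34 with FOXL2 siRNA (change 1.79, SE 0.09, adjusted p = 3.39e-07). With vehicle Slc41a3 changed by -0.10 and the other 6 in the same direction as with E2, by -1.46 for Slc7a8 for example. Slc16a3 alone of the 7 was not called without the block (adjusted p = 0.172).

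By comparison, 21.4% of 70 Rab, 20.5% of 73 Rnf and 19% of 42 Cyp genes were called, shares like that of the solute carriers. Lower shares were those of 53 Rpl (5.66%) and 50 Rps genes (6%) of the ribosome, 356 Zfp genes of zinc finger proteins (5.62%) and 106 Olfr genes of odorant receptors (2.83%). Members of a family are not replicates, and no test was made between families.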
